A study of Homo sapiens with 18 samples.

Results

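The alpha-arrestins, the thioredoxins and the glucose-sensing factors that control TXNIP and ARRDC4 were followed here as a group of 9 genes: TXNIP, ARRDC1, ARRDC2, ARRDC3, ARRDC4, TXN, TXN2, MLXIP and MLXIPL. They were chosen by name from the 63241 genes of the deposited count table, with results of these data already known, and all 9 were among the 16985 genes tested in LNCaP and the 17259 tested between the cell lines. Their differences are therefore given as a description, with no test, whereas genes of the surrounding pathways are given with one. The lists of pathway genes were also chosen with earlier results of these data known, which their p-values do not take into account. The study asked whether the plant flavonoids genistein and baicalein make prostate cancer cells more sensitive to a radioactive ligand of PSMA. RNA of 18 libraries was counted, in 6 groups of 3. LNCaP cells respond to androgen and were derived from a tumour deposit in a lymph node. They were left untreated or exposed for 24 h to 1 of the drugs, genistein or baicalein, at a concentration of 10 or 20 µM. PC-3 cells, which grow without androgen and were derived from a tumour deposit in bone, were used untreated only. Both lines are labelled wild type, and each stands for 1 tumour. The labels call the controls untreated, while the protocol names a DMSO vehicle for them. No label says that replicates came from separate cultures, so the errors and p-values below reflect variation among libraries alone, possibly of technical origin.

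Thioredoxin, encoded by TXN for the cytosol and nucleus and by TXN2 for mitochondria, reduces disulfides in other proteins and is itself recharged by NADPH-dependent thioredoxin reductases. TXNIP, the thioredoxin-interacting protein, binds reduced thioredoxin and blocks it, and it also lowers glucose uptake by drawing glucose transporters off the cell surface. TXNIP is the best known alpha-arrestin, a family of adaptors that carry PPxY motifs and bring HECT ubiquitin ligases of the NEDD4 family to membrane cargo. ARRDC1, ARRDC2, ARRDC3 and ARRDC4 are its relatives. MLXIP (MondoA) and MLXIPL (ChREBP) pair with MLX, enter the nucleus when glucose phosphates are plentiful, and bind carbohydrate response elements, paired E-box-like sites, in the promoters of TXNIP and ARRDC4.

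Total counts per library ran from 10013567 to 18445711. Mitochondrially encoded genes took 10.5% to 14.5% of the counts in the 3 libraries of baicalein at 20 µM and 4.15% to 6.35% in the other 15. The summed level of 7 LNCaP markers (KLK3, KLK2, TMPRSS2, FOLH1, KRT8, KRT18 and EPCAM) was 3036 to 3367 CPM (normalised read counts, scaled to library size and composition) in untreated LNCaP, 1212 to 1345 with baicalein at 20 µM and 498 to 557 in PC-3. None of the 7 was at 0 in any group. Marker levels of LNCaP are on the scaling of the 15 LNCaP libraries and those of PC-3 on that of the 6 untreated libraries. The summed level of 5 PC-3 markers was 2586 to 2844 CPM in PC-3 and 6.30 to 6.66 in untreated LNCaP, with KRT5 at 0 in PC-3. It was 13.6 to 16.1 CPM with genistein at 20 µM and 21.5 to 22.8 CPM with baicalein at 20 µM. The summed level of 7 markers of leukocytes, endothelium and fibroblasts lay between 13.7 and 21.5 CPM in every group. In bulk RNA of this kind, fewer cells of a type and less RNA per cell cannot be told apart.

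On GRCh38, the coordinates deposited with the counts place TXNIP at chr1:145992435-145996579 on the minus strand, ARRDC1 at chr9:137605685-137615360 (plus), ARRDC2 at chr19:18001132-18014102 (plus), ARRDC3 at chr5:91368631-91383317 (minus) and ARRDC4 at chr15:97960703-97973833 (plus). TXN lies at chr9:110243810-110256507 (minus), TXN2 at chr22:36467046-36481640 (minus), MLXIP at chr12:122078756-122147344 (plus) and MLXIPL at chr7:73593194-73624543 (minus). ARRDC1 overlaps an antisense gene, ARRDC1-AS1, which held 4803 counts over the 18 libraries against 11082 for ARRDC1. ARRDC3 overlaps ARRDC3-AS1, with 2277 counts against 30565. Whether counting used the strand is not given in the sources used here, so reads of these partners cannot be told apart, and the values of ARRDC1 and ARRDC3 are uncertain to that extent. The TXN pseudogenes took few counts, at most 60 for TXNP4 against 56065 for TXN.

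The upstream sequences of 3 members are shown because the known glucose control of TXNIP and ARRDC4 acts there and because ARRDC3 and ARRDC4 moved together across libraries. RefSeq (GRCh38.p14) gave promoter sequences for 8 of the 9 members, all but TXN2, with 11 start sites in all. Each line holds the 250 bases before a start site, 5′ to 3′ on the gene's strand: chr1:145996580-145996829 (minus) for TXNIP, chr15:97960453-97960702 (plus) for ARRDC4 and chr5:91380098-91380347 (minus) for the second start site of ARRDC3. Capitals mark the E-box CACGTG, its variant CACGAG and the forkhead motif GTAAACA, each searched on both strands.
TXNIP: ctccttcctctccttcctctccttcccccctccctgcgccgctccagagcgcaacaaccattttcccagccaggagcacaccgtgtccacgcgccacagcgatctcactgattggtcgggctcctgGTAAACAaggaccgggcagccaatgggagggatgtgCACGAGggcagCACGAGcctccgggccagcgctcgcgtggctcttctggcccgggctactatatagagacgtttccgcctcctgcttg
ARRDC4: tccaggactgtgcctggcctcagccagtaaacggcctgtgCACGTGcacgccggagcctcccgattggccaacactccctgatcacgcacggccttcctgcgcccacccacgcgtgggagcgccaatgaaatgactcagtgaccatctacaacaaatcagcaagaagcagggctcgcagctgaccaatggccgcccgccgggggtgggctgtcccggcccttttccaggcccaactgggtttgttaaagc
ARRDC3: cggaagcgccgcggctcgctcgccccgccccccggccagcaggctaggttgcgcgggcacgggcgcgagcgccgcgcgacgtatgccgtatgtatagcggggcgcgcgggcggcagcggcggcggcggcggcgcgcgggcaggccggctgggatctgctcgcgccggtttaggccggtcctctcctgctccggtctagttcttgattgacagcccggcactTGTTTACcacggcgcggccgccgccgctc
In TXNIP, CACGAG occurred 88 and 77 bases before the start site, and both copies together matched a pair of CACGNG with 5 bases between them, which 16 of 35116 promoters (0.0456%) hold in the same window. A GTAAACA motif began 124 bases before that start, and CCAAT boxes 140 and 105 bases before it. The other start site of TXNIP held none of these motifs. ARRDC4 carried CACGTG 210 bases before its start and CCAAT at 187, 128 and 67 bases, but no match to the paired pattern. ARRDC3 carried GTAAACA, read on the other strand, 29 bases before its second start, and none before its first. By themselves CACGTG is present in 6.34% of such windows, CACGAG in 5.58%, GTAAACA in 2.98% and CCAAT in 32.0%. A match describes letters in the window and is not a measured binding site.

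Of the 9 genes, TXNIP had the widest range of levels over the LNCaP groups. In untreated LNCaP its 3 libraries stood at 100.5, 109.8 and 107 CPM (mean 106 ± 4.85, SD, n = 3). With genistein at 20 µM they stood at 54.3, 49.9 and 51.8 CPM (52.0 ± 2.23), and with baicalein at 20 µM at 5.22, 4.35 and 4.43 CPM (4.67 ± 0.479). Every library treated at 20 µM lay below every untreated library, and the baicalein libraries lay far below those of genistein. The log2 fold change against untreated, given throughout ± the standard error of the fit, was -1.03 ± 0.09 for genistein, 2.04-fold lower, and -4.50 ± 0.11 for baicalein, 22.7-fold lower. At 10 µM the level stayed near that of the control: genistein gave 104, 115 and 116 CPM (112 ± 6.59) and baicalein 117, 114 and 117 CPM (116 ± 1.66). The genistein libraries overlapped the untreated ones and the baicalein libraries did not, at log2 fold changes of 0.08 ± 0.09 and 0.13 ± 0.09. With 1 scaling over all 18 libraries these values were -0.02 and 0.05. Ordered by level, TXNIP was lowest with baicalein at 20 µM, then with genistein at 20 µM, then untreated, and the last neighbours in the order, untreated with genistein at 10 µM and genistein at 10 µM with baicalein at 10 µM, overlapped.

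**Figure D1:**
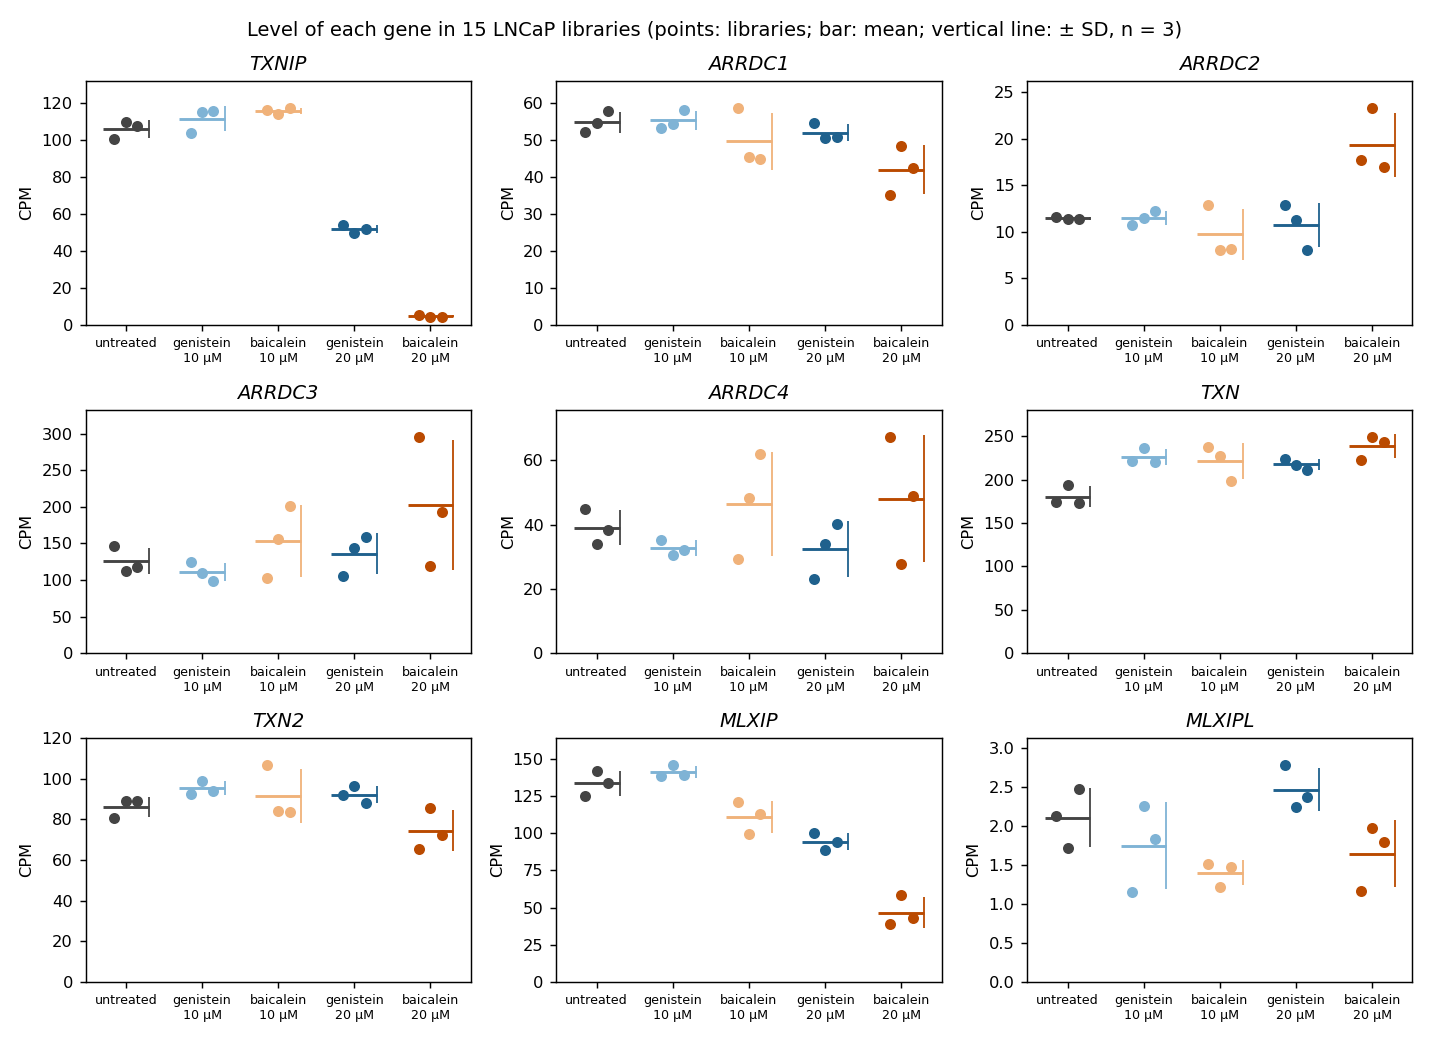
CPM of the 9 genes (y axes, from 0, 1 panel a gene) in the 15 LNCaP libraries, by group (x axis). Points are libraries, horizontal bars the means and vertical lines ± SD. TXNIP runs from a mean of 106 CPM untreated to 4.67 CPM with baicalein at 20 µM, while ARRDC3 and ARRDC4 spread widely inside groups.

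ARRDC1 to ARRDC4 showed no loss of that size. ARRDC1, which recruits TSG101 to the plasma membrane and drives the budding of microvesicles, stood at 52.1, 54.4 and 57.7 CPM untreated and at 35.0, 48.3 and 42.4 CPM with baicalein at 20 µM. All 3 baicalein libraries lay below the untreated ones, at a log2 fold change of -0.39 ± 0.13, and the highest of them was close to the lowest control. Its antisense partner ARRDC1-AS1 was at 21.3 ± 1.37 CPM untreated and 26.3 ± 4.85 CPM with baicalein at 20 µM. The means went in the opposite direction, but the libraries overlapped (19.7 to 22.4 CPM untreated, 21.8 to 31.4 CPM with baicalein). In the other 3 treated groups ARRDC1 overlapped the untreated libraries, with means between 49.5 and 55.2 CPM. ARRDC2 was the arrestin with the lowest level per length in untreated LNCaP, and of the 5 it was the only one whose libraries were higher without overlap at the high dose of baicalein. It stood at 11.6, 11.4 and 11.4 CPM untreated and at 17.8, 23.3 and 17.0 CPM with baicalein at 20 µM (log2 fold change 0.76 ± 0.20, 1.69-fold). Genistein at 20 µM gave 12.8, 11.3 and 8.10 CPM, on both sides of the control.

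ARRDC3, an adaptor known for integrin beta4, and ARRDC4, which like TXNIP is a MondoA target, varied widely between libraries of a group. ARRDC3 stood at 146, 113 and 118 CPM untreated, at 105, 144 and 159 CPM with genistein at 20 µM and at 296, 119 and 193 CPM with baicalein at 20 µM. ARRDC4 stood at 44.8, 34.0 and 38.4 CPM untreated, at 23.2, 34.1 and 40.2 CPM with genistein at 20 µM and at 67.4, 27.9 and 49.0 CPM with baicalein at 20 µM. Treated and untreated libraries overlapped for both genes in every drug group. The fitted log2 fold changes with baicalein at 20 µM were 0.69 ± 0.30 for ARRDC3 and 0.30 ± 0.31 for ARRDC4. Without the first baicalein library they were 0.31 and -0.03. The genes moved together: over the 15 LNCaP libraries Pearson's r of their log2 CPM was 0.90, and 0.98 once each group's mean was removed. Most other members ran the other way inside groups, with r against ARRDC3 of -0.94 for ARRDC1, -0.88 for TXN2, -0.81 for MLXIP, -0.77 for ARRDC2, -0.76 for TXN and -0.53 for MLXIPL, while TXNIP had 0.25. These correlations describe 15 libraries that share the depth and handling of each library, and no test was made of them.

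The share of mitochondrially encoded counts moved with this spread. In untreated LNCaP the shares were 4.65%, 5.36% and 5.25% in the order of the ARRDC3 values above, and with baicalein at 20 µM they were 10.5%, 14.5% and 12.4%. In each of the 5 LNCaP groups the 3 libraries stood in reverse order by ARRDC3 and by mitochondrial share, and in 4 of the 5 groups by ARRDC4 and that share. The correlation of ARRDC3 with the mitochondrial share inside groups was -0.95 and that of ARRDC4 -0.93. The correlation was positive for ARRDC1 (0.83), TXN2 (0.81), TXN (0.77), ARRDC2 (0.73), MLXIP (0.71) and MLXIPL (0.59). For TXNIP it was -0.11, and its order was the reverse of that of the mitochondrial share in 1 group and the same in 2. The part of the mitochondrial share in the levels of these 9 genes was not tested.

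**Figure D2:**
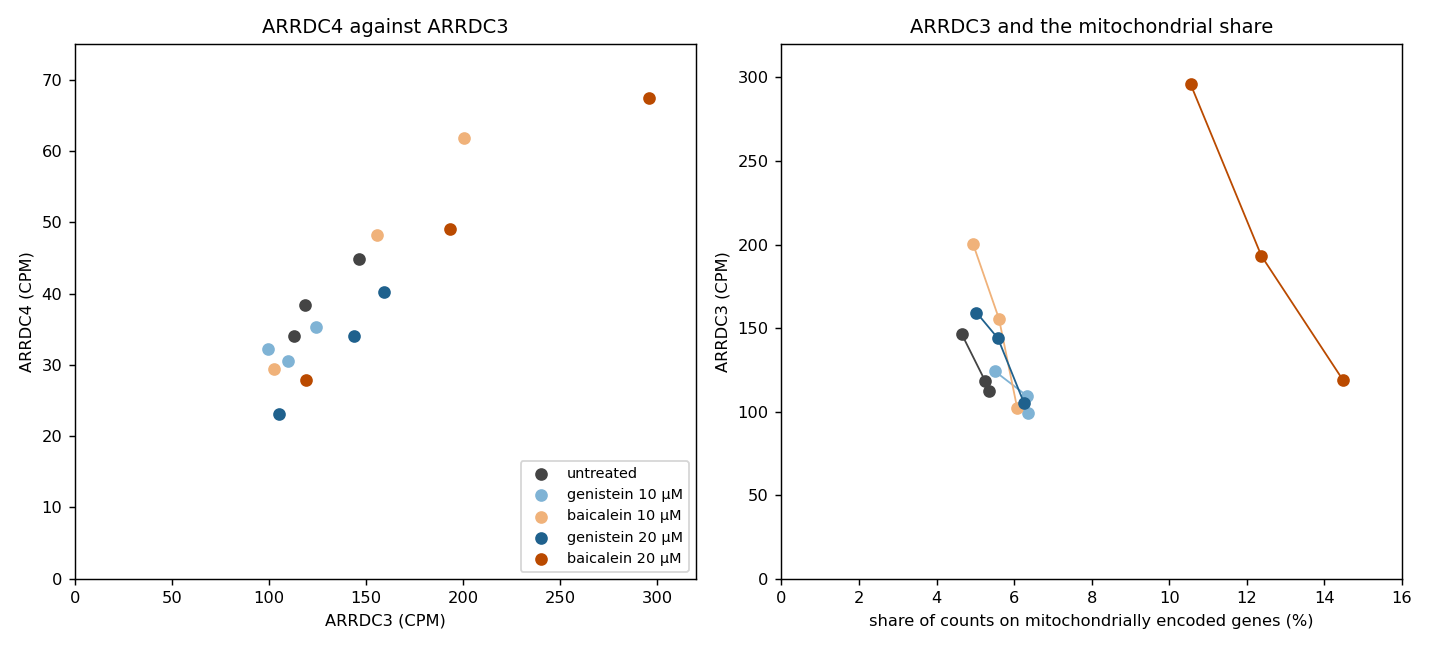
Left, CPM of ARRDC4 (y axis) against CPM of ARRDC3 (x axis) in the 15 LNCaP libraries, coloured by group. Right, CPM of ARRDC3 (y axis) against the percentage of counts on mitochondrially encoded genes (x axis), with lines joining the 3 libraries of a group; every line falls from left to right.

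TXN and TXN2 differed less than TXNIP. TXN stood at 174, 194 and 173 CPM untreated (181 ± 11.7). It stood at 222, 237 and 220.3 CPM with genistein at 10 µM, at 238, 227 and 198 CPM with baicalein at 10 µM, at 224, 217 and 212 CPM with genistein at 20 µM and at 223, 249.7 and 243 CPM with baicalein at 20 µM. All 12 treated libraries lay above all 3 untreated ones. The log2 fold changes were 0.33 ± 0.10, 0.29 ± 0.10, 0.27 ± 0.10 and 0.40 ± 0.10 in that order, and the 4 comparisons share the same untreated libraries. The value for genistein at 10 µM was 0.23 with 1 scaling over all 18 libraries. TXN2 stood at 80.7, 88.9 and 89.0 CPM untreated and at 65.4, 85.7 and 72.4 CPM with baicalein at 20 µM, which overlapped (log2 fold change -0.21 ± 0.12). With genistein at 10 µM its libraries were at 92.7, 99.2 and 94.2 CPM, all above the control, at 0.15 ± 0.12 in the fit and 0.05 with the other scaling.

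MLXIP, the glucose-sensing partner of MLX, was lower with both drugs at 20 µM in LNCaP, as TXNIP was. It stood at 125, 142 and 134 CPM untreated (134 ± 8.30), at 100.3, 89.1 and 94.0 CPM with genistein at 20 µM (94.5 ± 5.60) and at 38.8, 58.2 and 42.9 CPM with baicalein at 20 µM (46.7 ± 10.2). The 3 groups did not overlap. The log2 fold changes were -0.50 ± 0.14 for genistein and -1.52 ± 0.14 for baicalein, the latter 2.86-fold lower. At 10 µM baicalein gave 121, 99.7 and 113 CPM, below every untreated library (-0.27 ± 0.14), and genistein gave 139, 146 and 139 CPM, which overlapped. MLXIPL was scarce, at 2.13, 1.71 and 2.47 CPM untreated and 1.16, 1.97 and 1.79 CPM with baicalein at 20 µM, which overlapped. Its lowest mean was with baicalein at 10 µM, at 1.51, 1.21 and 1.47 CPM (log2 fold change -0.59 ± 0.27). MLX itself, their common partner, was at 103 ± 19.2 CPM untreated and 101 ± 13.5 CPM with baicalein at 20 µM, with a log2 fold change of -0.03 ± 0.25 and an adjusted p = 0.927.

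**Figure D3:**
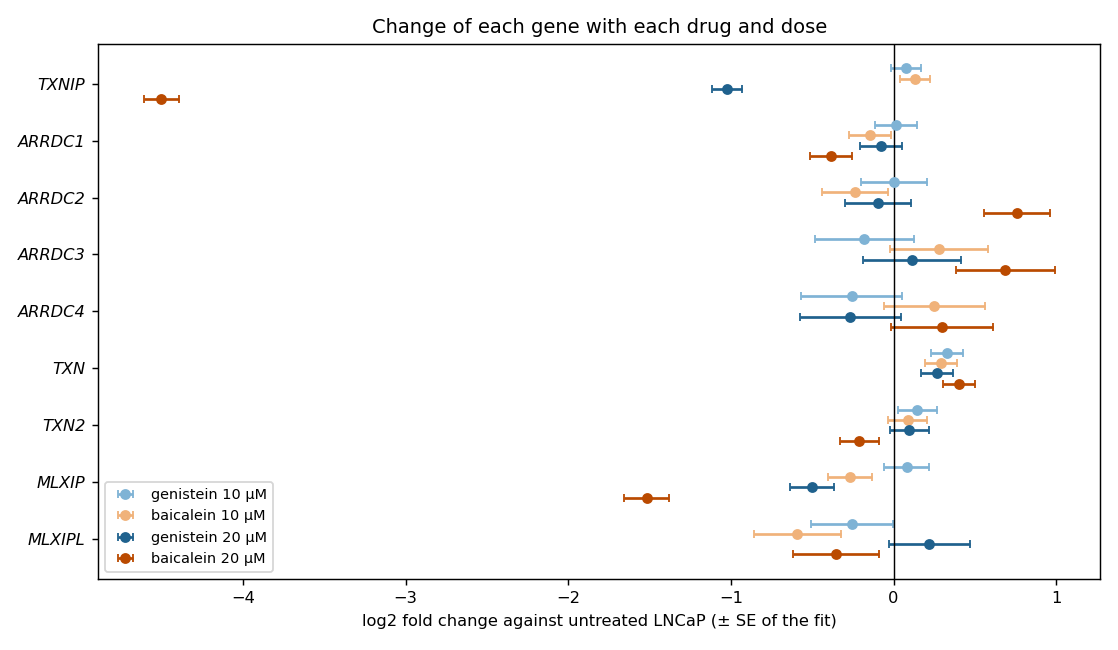
Log2 fold change against untreated LNCaP (x axis, points, with bars of ± 1 SE of the fit) of the 9 genes (y axis) for each drug and dose. The points of TXNIP at -4.50 for baicalein and -1.03 for genistein at 20 µM and that of MLXIP at -1.52 for baicalein at 20 µM lie farthest to the left.

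Levels can be compared between genes only per length. Per kilobase of the union of exons, untreated LNCaP held 158 CPM of TXN, 42.0 of TXN2, 29.2 of TXNIP, 25.5 of ARRDC3, 14.3 of ARRDC1, 9.62 of MLXIP, 9.60 of ARRDC4, 2.47 of ARRDC2 and 0.437 of MLXIPL. With baicalein at 20 µM the level per kilobase of TXNIP was 1.29 and that of TXN 209. TXNIP was thus below TXN and TXN2 alone in untreated cells, and with baicalein below every other member but MLXIPL, at 0.341. The exon union of MLXIP is long, at 13905 bases, so its level per kilobase depends on which of its transcripts the cells make.

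At an adjusted p under 0.05, the threshold for a called gene, 0 of the 9 members were called at 10 µM of either drug in edgeR. Of all genes tested, 0.0353% were called higher and 0.0765% lower with genistein at 10 µM, and 0.0883% higher and 0.312% lower with baicalein at 10 µM. With genistein at 20 µM 0 members were called higher and 2 lower (TXNIP and MLXIP), beside 8.31% and 8.12% of all genes. That balance depends on the scaling, with 1412 genes higher and 1379 lower here against 1126 and 1591 with RLE size factors. With baicalein at 20 µM 2 members were called higher (TXN and ARRDC2) and 3 lower (TXNIP, MLXIP and ARRDC1), beside 29.4% and 27.8% of all genes. Since the members were chosen with these comparisons known, nothing is read from these counts.

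Genistein, an isoflavone, and baicalein, a flavone, are isomers with different attachment points of the phenyl ring and a different arrangement of hydroxyl groups, and they were compared at matched doses. At 10 µM the difference of genistein minus baicalein in TXNIP was -0.05 on the log2 scale, with a 95% interval from -0.25 to 0.14. The interval for TXN was -0.18 to 0.25, and that for MLXIP, higher with genistein, was 0.05 to 0.64. None of the 9 members was called, beside 0.00589% of all genes called higher and 0% called lower. At 20 µM TXNIP was higher with genistein than with baicalein by 3.48 ± 0.10, 11.1-fold, with an interval from 3.25 to 3.70. MLXIP was higher with genistein by 1.02 ± 0.14 and ARRDC2 lower (-0.85 ± 0.20), and in these 3 genes the libraries of the drugs did not overlap. ARRDC1, TXN2 and MLXIPL were also higher with genistein without overlap, at 0.31 ± 0.13, 0.31 ± 0.12 and 0.57 ± 0.27, but were not called. The share of all genes without overlap between the drugs is not given here, and nothing is read from the lack of overlap. For TXN the libraries overlapped and the interval was -0.35 to 0.08. Members called higher numbered 2 and lower 1, beside 25.4% and 23.3% of all genes.

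The untreated cell lines differed in every member, on the scaling of the fit of these 6 libraries. PC-3 had more TXNIP, at 212, 239 and 209.9 CPM against 97.0, 107 and 105 CPM in LNCaP (log2 fold change 1.10 ± 0.10, 2.14-fold). It also had more TXN, at 372, 372 and 458 CPM against 176 ± 12.2 CPM (1.19 ± 0.12, 2.28-fold), and more ARRDC2, at 26.4, 28.4 and 34.1 CPM against 11.1 ± 0.0826 CPM (1.41 ± 0.13). PC-3 had less MLXIP, at 30.7, 28.4 and 32.1 CPM against 130.1 ± 8.84 CPM (-2.10 ± 0.11, 4.28-fold), the opposite direction to TXNIP. ARRDC4 was at 8.16, 8.49 and 6.72 CPM against 38.0 ± 5.05 CPM (-2.28 ± 0.15, 4.86-fold). ARRDC1 was lower at -1.49 ± 0.13, as was its antisense partner, at 7.28 ± 2.54 CPM against 20.7 ± 1.45 CPM. ARRDC3 was lower at -1.12 ± 0.15, and so was ARRDC3-AS1, at 4.64 ± 1.78 CPM against 10.9 ± 2.45 CPM. TXN2 was lower by little, at 65.1, 65.3 and 59.8 CPM against 83.8 ± 5.10 CPM (-0.40 ± 0.10). MLXIPL had 2 counts in the 3 PC-3 libraries together and 112 in those of LNCaP, a level 32.1-fold lower with a 95% counting interval from 8.67-fold to 268-fold. In none of the 9 genes did the libraries of the lines overlap, but the share of all genes without overlap is not given here. Members called higher numbered 3 and lower 6, beside 37% and 37.9% of all genes. Nothing is read from those counts or from the lack of overlap.

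**Figure D4:**
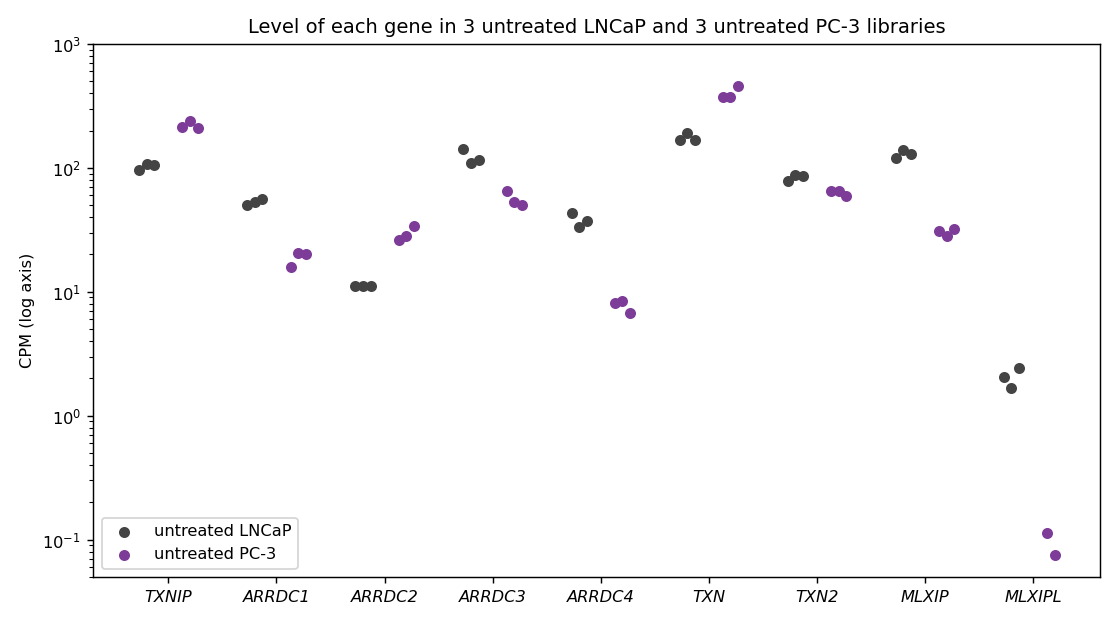
CPM (y axis, log scale) of the 9 genes (x axis) in 3 untreated LNCaP and 3 untreated PC-3 libraries, 1 point a library. The PC-3 library with 0 counts of MLXIPL cannot be drawn on this axis. PC-3 lies above LNCaP for TXNIP, TXN and ARRDC2 and below it for the other 6.

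Genes around the members were grouped in 8 lists with 92 genes, of which 83 were tested in LNCaP and 86 between the lines. In each comparison the count called is given beside the median log2 fold change of the lists and of all genes. With genistein at 10 µM 0 of 83 were called by edgeR, 10 had an unadjusted p under 0.05 (8 higher, 2 lower) and DESeq2 called 1 (median 0.03, against 0.03 over all genes). With baicalein at 10 µM 0 were called, 13 had an unadjusted p under 0.05 (8 higher, 5 lower) and DESeq2 called 2 (median 0.09, against 0.02). Between the drugs at 10 µM 0 were called by either tool, with 3 at an unadjusted p under 0.05 (median -0.01, against 0.02). With genistein at 20 µM 8 of 83 rose and 5 fell (median 0.11, against 0.05 over all genes), beside 8.31% and 8.12% of all genes. With baicalein at 20 µM 23 rose and 29 fell (median -0.18, against 0.04), beside 29.4% and 27.8% of all genes. The counts of single lists below stand beside these same shares, and nothing is read from them. Where a gene below is said to have risen or fallen, its adjusted p was under 0.05.

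Among the reductases, peroxiredoxins and repair reductases, 5 of 14 rose and 5 fell with baicalein at 20 µM. TXNRD2, the mitochondrial thioredoxin reductase, stood at 118 ± 7.91 CPM untreated and fell to 60.3 ± 8.005 CPM (-0.97 ± 0.13, adjusted p = 2.58e-05). TXNRD3 fell from 22.0 ± 2.92 to 10.9 ± 0.562 CPM (adjusted p = 4.15e-05), and PRDX6, a peroxiredoxin, from 670 ± 19.3 to 480.2 ± 12.8 CPM (adjusted p = 0.000156). SRXN1, the sulfiredoxin that restores overoxidised peroxiredoxins, rose from 184 ± 12.2 to 289.9 ± 50.2 CPM (adjusted p = 0.000799). TXNRD1, the cytosolic reductase, was erratic. It stood at 417, 508 and 360.1 CPM untreated and at 419, 1511 and 645 CPM with baicalein at 20 µM, an overlap, with an adjusted p = 0.0406 that went to 0.36 without the second baicalein library and to between 0.0634 and 0.137 without any single untreated one. With baicalein at 10 µM TXNRD1 was at 955, 970.5 and 906 CPM, all above the control, at 1.14 ± 0.39 and an adjusted p = 0.29. Under genistein at 20 µM 2 of the 14 rose and 0 fell, PRDX5 from 312 ± 22.2 to 512 ± 11.1 CPM (adjusted p = 0.00162) and MSRB2 at 0.51 ± 0.13 (adjusted p = 0.0189). The MSRB2 call was lost without any of 5 of the 6 libraries (all but the second of genistein), with adjusted p from 0.0611 to 0.0684.

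Of 23 other proteins with a thioredoxin fold, 5 rose and 6 fell with baicalein at 20 µM. TXNDC12, a thioredoxin of the endoplasmic reticulum, rose from 48.5 ± 2.94 to 115 ± 4.39 CPM (1.24 ± 0.09, adjusted p = 1.37e-07). GLRX3, a glutaredoxin of iron-sulfur cluster handling, rose from 114 ± 2.91 to 261 ± 30.2 CPM (adjusted p = 3.86e-06) and TXNL4B from 19.2 ± 2.72 to 41.9 ± 3.56 CPM (adjusted p = 6.24e-06). The protein disulfide isomerases P4HB, PDIA3, PDIA4 and PDIA6 all fell, at log2 fold changes from -1.17 for PDIA4 to -0.38 for PDIA3 and PDIA6. Those 4 were picked out after their values were seen. Under genistein at 20 µM 4 of the 23 rose and 0 fell. TXNDC12 was among them, at 0.38 ± 0.09 (adjusted p = 0.01), but without the second untreated library its adjusted p was 0.0913 and without the first genistein library 0.0806. Of 6 thioredoxin clients tested, 1 rose and 3 fell with baicalein at 20 µM. The ribonucleotide reductase subunits RRM1 and RRM2, which take electrons from thioredoxin to make deoxyribonucleotides, fell, with log2 fold changes of -1.96 ± 0.14 (adjusted p = 1.36e-07) and -3.84 ± 0.36 (adjusted p = 1.73e-06). RRM2 stood at 89.4, 46.2 and 42.8 CPM untreated, at 21.6, 23.6 and 20.6 CPM with genistein at 20 µM (adjusted p = 0.00845) and at 3.96, 4.76 and 3.69 CPM with baicalein at 20 µM. MAP3K5 (ASK1), a kinase that thioredoxin holds inactive, fell by 0.44 ± 0.12 with baicalein (adjusted p = 0.00773), a call that a fit of these 2 groups alone did not make (adjusted p = 0.0764).

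In the list of MLX and the MAX network, which holds the partners and rivals of MLXIP, 2 of 9 rose and 3 fell with baicalein at 20 µM. MXD1, a repressor that pairs with MAX, rose from 19.2 ± 2.09 to 34.0 ± 1.89 CPM (adjusted p = 0.000103) and MXD3 fell from 4.69 ± 0.992 to 2.31 ± 0.202 CPM (adjusted p = 0.00157). MYC had an adjusted p = 0.025 at -2.27 ± 0.78, but its untreated libraries varied widely (33.4 ± 32.5 CPM) and overlapped those of baicalein. Without untreated replicate 3 its value was -1.12 with an adjusted p = 0.197, and without baicalein replicate 2 or 3 the adjusted p was 0.0837 or 0.0813. Of 10 genes of glucose uptake and glucose response, 2 rose and 5 fell. LDHA, the lactate dehydrogenase subunit, fell from 331 ± 61.3 to 122 ± 27.5 CPM (adjusted p = 2.48e-05), PKM, pyruvate kinase, from 467 ± 32.3 to 231 ± 12.8 CPM (adjusted p = 4.81e-06), and PFKFB2 by 0.89 ± 0.12 (adjusted p = 2.58e-05). SLC2A1, the GLUT1 transporter that TXNIP binds, was at 29.3 ± 0.368 CPM untreated and 35.2 ± 14.6 CPM with baicalein at 20 µM (adjusted p = 0.503), an overlap. The 2 that rose were KLF10 (2.14 ± 0.44) and HBP1 (1.93 ± 0.35), named after their values were seen, which varied within groups as ARRDC3 did. KLF10 stood at 560.2, 174 and 342 CPM in the 3 libraries of baicalein at 20 µM, and it was in reverse order to the mitochondrial share in 5 of 5 groups.

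Of 9 tested HECT ligases of the NEDD4 family and their adaptors, 3 rose and 2 fell with baicalein at 20 µM. NEDD4 rose from 27.9, 21.8 and 21.1 CPM to 148, 71.3 and 112 CPM (2.23 ± 0.29, adjusted p = 2.69e-05). Inside groups NEDD4 correlated with the mitochondrial share at -0.80, in reverse order in 3 of 5 groups, and the part of that share was not tested. Such correlations were computed for the members and a few chosen pathway genes, and not for SMURF1, NEDD4L or all genes. SMURF1 rose from 30.1 ± 1.75 to 66.0 ± 8.23 CPM (adjusted p = 1.78e-06), and NEDD4L fell from 379 ± 14.7 to 173 ± 4.06 CPM (adjusted p = 3.12e-07). ITCH, the ligase reported to degrade TXNIP, was at 12.6, 5.68 and 9.36 CPM untreated and at 67.0, 34.4 and 18.6 CPM with baicalein at 20 µM, without overlap but with an adjusted p = 0.0771. It was as variable in the other treated groups, where it ran from 5.05 to 58.7 CPM. WWP1 did not pass the test (0.38 ± 0.28, adjusted p = 0.265), and its correlation with the mitochondrial share inside groups was -0.95. Under genistein at 20 µM 0 of the 9 rose and 2 fell, NEDD4L by 0.39 ± 0.09 (adjusted p = 0.00932) and WWP2, which ubiquitinates ARRDC1, by 0.59 ± 0.18 (adjusted p = 0.0401). The call for WWP2 was lost without any single library of the 6, with adjusted p from 0.0592 to 0.132.

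Of 5 tested beta-arrestins and other arrestin-fold proteins, 2 rose and 2 fell with baicalein at 20 µM. ARRB1, beta-arrestin 1, fell from 35.9 ± 1.78 to 9.94 ± 1.16 CPM (-1.85 ± 0.17, adjusted p = 1.24e-06), whereas ARRB2 was at 29.02 ± 0.846 and 25.1 ± 2.74 CPM and did not pass the test (adjusted p = 0.123). The retromer subunits VPS26A and VPS26B, which share the arrestin fold, went opposite ways, at 0.75 ± 0.17 (adjusted p = 0.00187) and -0.97 ± 0.12 (adjusted p = 1.65e-05). Of 7 tested cargoes and vesicle partners, 3 rose and 3 fell. TSG101, the ESCRT protein that ARRDC1 recruits, rose from 93.3 ± 3.83 to 122 ± 3.85 CPM (adjusted p = 0.00289), and VPS4B, an ATPase of the same machinery, by 1.24 ± 0.24 (adjusted p = 0.000691). Under genistein at 20 µM TSG101 rose by 0.41 ± 0.09 (adjusted p = 0.00933), a call that was lost without untreated replicate 2 or 3 or genistein replicate 1 (adjusted p from 0.0536 to 0.0951). In place of the 13 pathway genes called with genistein at 20 µM, fits without any 1 of the 6 libraries called 4 to 7. Of the 12 called genes followed singly under alternatives, PRDX5, RRM2 and NEDD4L passed in all that were run.

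**Figure D5:**
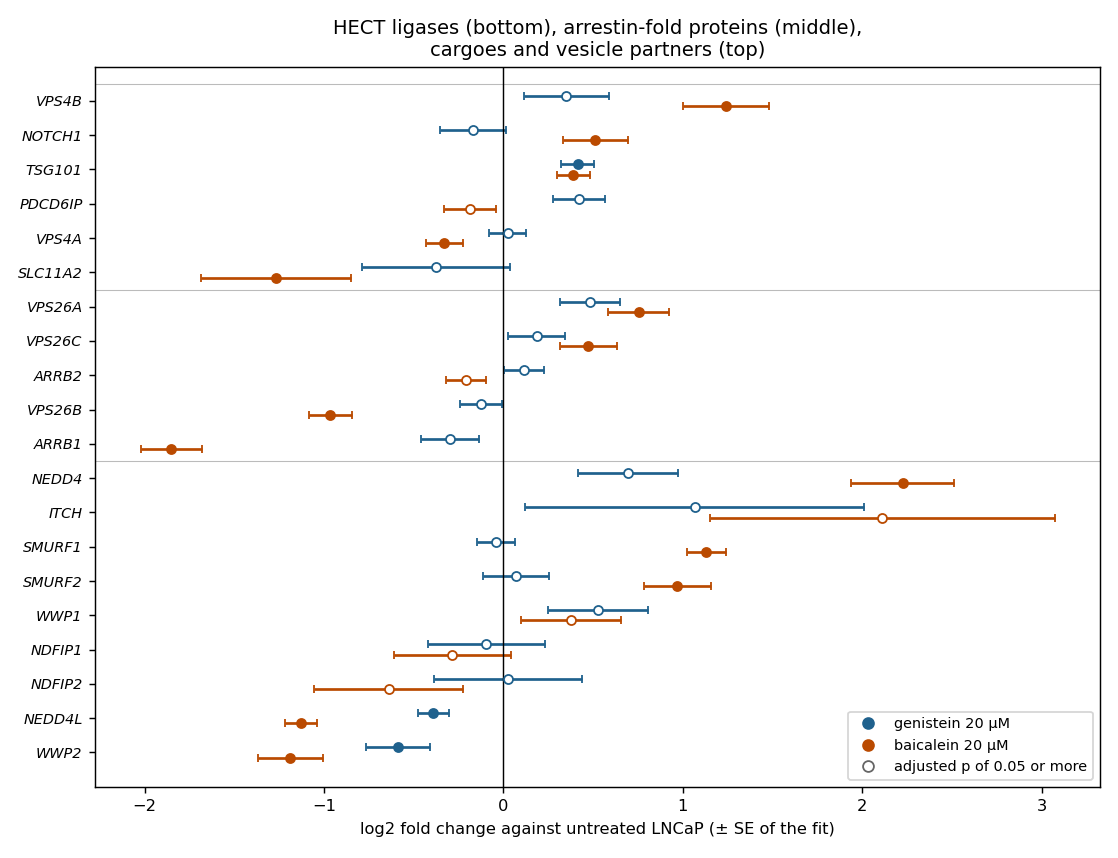
Log2 fold change against untreated LNCaP (x axis, points, with bars of ± 1 SE of the fit) with genistein and baicalein at 20 µM for 20 tested genes (y axis) of 3 lists, the HECT ligases and adaptors, the arrestin-fold proteins and the cargoes and vesicle partners. Filled points passed the threshold, 14 of them for baicalein with NEDD4L and ARRB1 on the left and NEDD4 on the right.

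Compared directly at 20 µM, 31 of the 83 pathway genes were higher with genistein than with baicalein and 14 lower. Of all genes, 25.4% were higher and 23.3% lower, and the medians were 0.32 for the lists and 0.02 over all genes. ARRB1 was higher with genistein by 1.55 ± 0.17 (adjusted p = 9.91e-06), RRM1 by 1.71 ± 0.14 (adjusted p = 8.39e-07) and RRM2 by 2.40 ± 0.35 (adjusted p = 0.000105). SMURF1 was lower with genistein (-1.17 ± 0.11, adjusted p = 2.52e-06), as were TXNDC12 (-0.86 ± 0.09, adjusted p = 5.67e-06) and NEDD4 (-1.53 ± 0.28, adjusted p = 0.000642). TXNRD1 did not pass this test (-0.92 ± 0.39, adjusted p = 0.064), though it did without the first baicalein library (adjusted p = 0.0106).

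Between the cell lines, 40 of 86 pathway genes were higher in PC-3 and 26 lower (median 0.27, against -0.02 over all genes). Of all genes, 37% were higher and 37.9% lower. Of the reductase list 5 were higher and 5 lower. TXNRD1 was higher, at 1918, 1881 and 975 CPM against 417 ± 73.9 CPM (1.93 ± 0.28, adjusted p = 0.000732), and TXNRD2 lower, at 28.0 ± 2.93 against 115 ± 8.35 CPM (adjusted p = 8.13e-06). Of 23 thioredoxin-fold proteins 13 were higher and 3 lower, with GLRX, glutaredoxin, at 155 ± 4.11 against 8.28 ± 1.74 CPM (4.23 ± 0.18, adjusted p = 2.15e-06). In the MAX network 2 of 9 were higher and 5 lower, the latter including MLX (-1.09 ± 0.21, adjusted p = 0.00276) along with MNT and MXD4, and MAX was higher (2.73 ± 0.22, adjusted p = 3.18e-05). Of 10 glucose genes 7 were higher and 2 lower, with LDHA at 2225 ± 208 against 322 ± 61.1 CPM (adjusted p = 7.42e-06) and SLC2A1 at 61.7 ± 21.6 against 28.5 ± 0.361 CPM (adjusted p = 0.00404). Of 10 ligases and adaptors 3 were higher and 3 lower. ITCH was higher, at 50.9, 68.2 and 51.6 against 12.2, 5.56 and 9.12 CPM (2.66 ± 0.29, adjusted p = 0.000177), and WWP2 lower (-2.55 ± 0.15, adjusted p = 6.88e-06). Of 8 cargoes and partners 4 were higher and 3 lower. ITGB4, integrin beta4, stood at 42.4 ± 2.42 CPM in PC-3 and 0.319 ± 0.194 in LNCaP (adjusted p = 1.82e-06).

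Genes with a pattern like that of TXNIP were found by Pearson's r of log2 CPM over the 15 LNCaP libraries, among 10454 protein-coding genes with a mean of at least 5 CPM. Among the most alike were AMOTL1 (r = 0.997), ARSG (0.995), LRRN1 (0.993) and FAM234B (0.993). AMOTL1 was at 15.5 CPM untreated, 1.03 with baicalein at 20 µM and 24.8 in PC-3, so it was above the LNCaP level there, as TXNIP was. The others named went the other way in PC-3. ARSG was at 0.534 CPM there against 33.4 in untreated LNCaP, LRRN1 at 0.0378 against 111 and FAM234B at 4.05 against 48.9. Of the members MLXIP was the most alike, at r = 0.95 and rank 540, and ARRDC2 had r = -0.79. No test was made of them, and the values of a library share its depth and handling.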

How the data were processed

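RNA-seq of LNCaP and PC-3 was deposited as 1 table of raw read counts per gene for 18 libraries, on GRCh38 coordinates. The submitters' processing notes list, without roles, DESeq2 1.20.0, featureCounts 1.6.4, STAR 2.7.6a and fastp. The annotation release and strand setting are not given in the sources used here. The 18 FPKM columns and the deposited comparisons were not used.

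Counts were tested with edgeR 4.0.16 (R 4.3.3, limma 3.58.1): filterByExpr, TMM scaling and the robust quasi-likelihood test, with Benjamini-Hochberg adjustment over all genes at 0.05. The 15 LNCaP libraries were fitted together (common biological coefficient of variation 0.235) and the 6 untreated libraries apart (0.208). CPM values use the TMM scaling of the fit they belong to, and not 1 scaling over 18 libraries as was planned, since that scaling shifted group ratios at 10 µM. Its median log2 ratio to untreated was -0.07 for genistein and -0.06 for baicalein at 10 µM, against 0.03 and 0.02 in the fit. At 20 µM it was 0.02 for genistein and -0.04 for baicalein, against 0.05 and 0.04. Errors of levels are SD over 3 libraries, and those of log2 fold changes are SE of the fit. Total counts of 10013567 to 18445711 set the counting error, which is all that the MLXIPL interval covers. Libraries of a group differed by more than sampling noise (chi-square per degree of freedom 12.0 to 97.6). The fit was also run on simulated counts, with independent libraries and the same dispersion for every gene. Those settings are simpler than these data, so that run checked the code and not the results.

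The members and lists were chosen with earlier results of these data known. All members were named. Of the lists, MLX, TXNRD1, TXNRD2, SRXN1, SLC2A1, ITCH, WWP1, ARRB1 and ARRB2 were named, with up to 3 called genes of smallest adjusted p per list and comparison. Likeness to TXNIP was taken over genes with a mean of at least 5 CPM, and those named are among the 5 most alike. Some genes that these rules name are not reported here. Exon lengths come from GENCODE and promoters from RefSeq. Alternatives were DESeq2 1.42.0, RLE size factors, no mitochondrially encoded genes, no filter, the compared groups alone, a replicate block and leaving out each library.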

Additional observations from a re-analysis of the deposited data

How the results depend on the processing

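Among the members and the pathway genes picked by the naming rule above, no called difference changed sign under any alternative run. Other called genes, such as P4HB, KLF10 and HBP1 with baicalein at 20 µM, were not followed singly. Over called and uncalled differences together, the sign changed in 33 of 810 recomputed fold changes of members and in 24 of 1626 of the picked pathway genes. All of these sign changes were in differences that were not called. Of the members' fold changes, 785 moved by less than the replicate spread and 25 by more. Of the tests of these picked pathway genes under alternatives, 1529 kept their side of the threshold, 93 lost a call and 4 gained one. Many of the genes were picked for a small adjusted p, and the rest of the lists was not followed singly. Calls kept in all alternatives were 3 of 12 followed with genistein and 23 of 26 with baicalein at 20 µM. They were 19 of 24 between the drugs at 20 µM and 29 of 30 between the lines. DESeq2 called 1 pathway gene with genistein at 10 µM and 2 with baicalein at 10 µM, where edgeR called 0. Without a filter on low counts 7 were called with genistein at 20 µM, against 13. Leaving out 1 library at a time gave 4 to 7 calls with genistein at 20 µM, 45 to 50 with baicalein at 20 µM, 40 to 45 between the drugs at 20 µM and 64 to 68 between the cell lines, and 0 to 0 in the 3 comparisons at 10 µM. Replicate numbers did not pair the samples: same-numbered deviations correlated at -0.29 to 0.25 over 21 pairs, and 4 correlated best with their own number. With the replicate number as a block, 10 pathway genes were called with genistein and 49 with baicalein at 20 µM, 43 between the drugs at 20 µM, 69 between the lines and 0 at 10 µM. Over all genes, genistein at 10 µM called 19 (DESeq2 88, block 11), baicalein at 10 µM 68 (DESeq2 290, block 29, the compared groups alone 9) and the drugs at 10 µM 1 (DESeq2 31, block 0, the compared groups alone 0). With genistein at 20 µM the split of higher and lower genes was 1412 and 1379, against 1108 and 1566 with DESeq2, 1126 and 1591 with RLE size factors and 1076 and 1685 without mitochondrially encoded genes. The split with genistein at 10 µM was 6 and 13, against 37 and 51 with DESeq2, and with baicalein at 10 µM 15 and 53, against 12 and 89 without mitochondrially encoded genes. The median of all genes between the lines was -0.02, against -0.21 with DESeq2 and -0.29 without a filter. The scaling of levels within each fit was chosen after seeing the data. With the planned scaling over 18 libraries, the ratios of means with genistein at 10 µM had the other sign, with TXNIP at -0.02, ARRDC1 at -0.09, ARRDC2 at -0.10 and MLXIP at -0.02, as had TXN2 with baicalein at 10 µM, at -0.004. The causes of these differences were not tested.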
